A study of Mus musculus with 6 samples.

Results

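The 9 genes described here encode the transforming growth factor beta (TGF-beta) ligands Tgfb1, Tgfb2 and Tgfb3, the receptors Tgfbr1, Tgfbr2 and Tgfbr3, and the signal transducers Smad2, Smad3 and Smad4. They were chosen by gene symbol and not by a cut on measured values, though with earlier results of these data known. They are 9 of the 22609 genes in the count tables. Expression was measured by RNA sequencing in adult livers of C57BL/6 mice, 3 libraries from mice lacking Igfbp7 (IGFBP7 knock-out, here KO) and 3 from wild type mice (WT). The labels give the knockout as a Cre-loxP allele on a pure C57BL/6 background, without naming the Cre driver, and they give no agent, age, sex or time of collection for either group. Igfbp7 encodes insulin-like growth factor binding protein 7, a secreted protein studied in this series in relation to hepatocellular carcinoma. Nothing in the labels says whether the 3 libraries of a genotype came from separate animals, so p-values measure the spread between these libraries, which may be technical.

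TGF-beta ligands are secreted in a latent form, are released outside the cell, and bind the type II receptor encoded by Tgfbr2, which then phosphorylates the type I receptor encoded by Tgfbr1. The type I receptor phosphorylates SMAD2 and SMAD3, which join SMAD4 and regulate genes in the nucleus, while betaglycan, the product of Tgfbr3, presents ligand at the cell surface. In liver the pathway is best known for restraining hepatocyte proliferation and for driving hepatic stellate cells to make collagen, and macrophages and platelets are among the known sources of TGFB1.

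The libraries held 16712568 to 22419411 gene counts. Igfbp7 itself had 5, 2 and 9 counts in KO libraries 1 to 3, against 1438, 1705 and 1055 counts in WT libraries 1 to 3, as the labels state. Hepatocyte markers, all 6 of which were tested, summed to 87320 to 110936 CPM in KO and 80623 to 100182 CPM in WT libraries, where CPM are gene counts scaled to a common library size. Genes of the circadian clock set WT library 1 apart: a score of evening minus morning clock genes on the log2 scale was 3.63, 4.33 and 4.05 in KO libraries 1 to 3 and 0.06, 2.91 and 3.35 in WT libraries 1 to 3. The 2 genotypes did not overlap in this score, and its part in the results was not tested beyond the fit with the score as a covariate. Genotype and score went together in part, so that fit can tell them apart only weakly.

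None of the 9 genes changed past the threshold in KO livers. All 9 passed the filter on low counts, and edgeR's quasi-likelihood test called 0 of them at an adjusted p under 0.05, as did DESeq2 and limma-voom. At an unadjusted p under 0.05 edgeR gave 2, Tgfb1 and Tgfb2, both lower in KO, of which Tgfb2 entered the test through its WT values. Over all 12522 genes tested, edgeR called 0.216%, DESeq2 3.41% and limma-voom 0.2%, and 7.35% stood lower in KO with an unadjusted p under 0.05. The members' median log2 fold change was -0.13, with 5 below and 4 above 0, against a median of 0.00 over all genes tested. In 3 members, Tgfb1, Smad3 and, with that same limit, Tgfb2, the 3 KO values all lay below the 3 WT values, a pattern found in 10.1% of all genes tested, and in 0 members did they all lie above, against 10.7% of all genes.

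**Figure D1:**
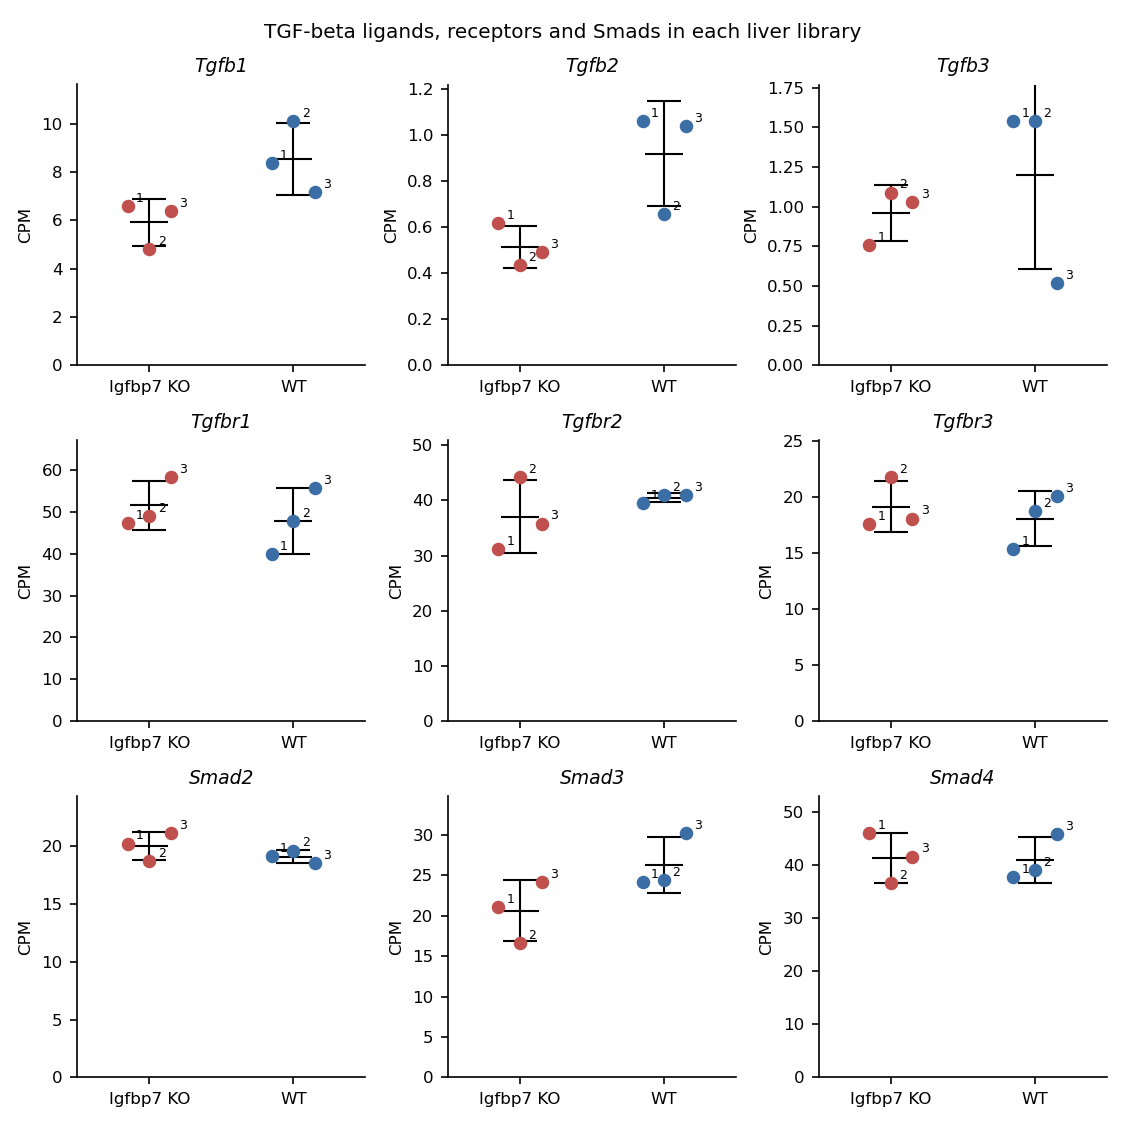
CPM of each of the 9 genes (vertical axes from 0) in KO and WT livers; points are libraries numbered by replicate, and bars are the mean ± SD of 3 libraries. KO points lie below WT points for Tgfb1, Tgfb2 and Smad3, and the groups overlap for the other 6 genes.

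**Figure D2:**
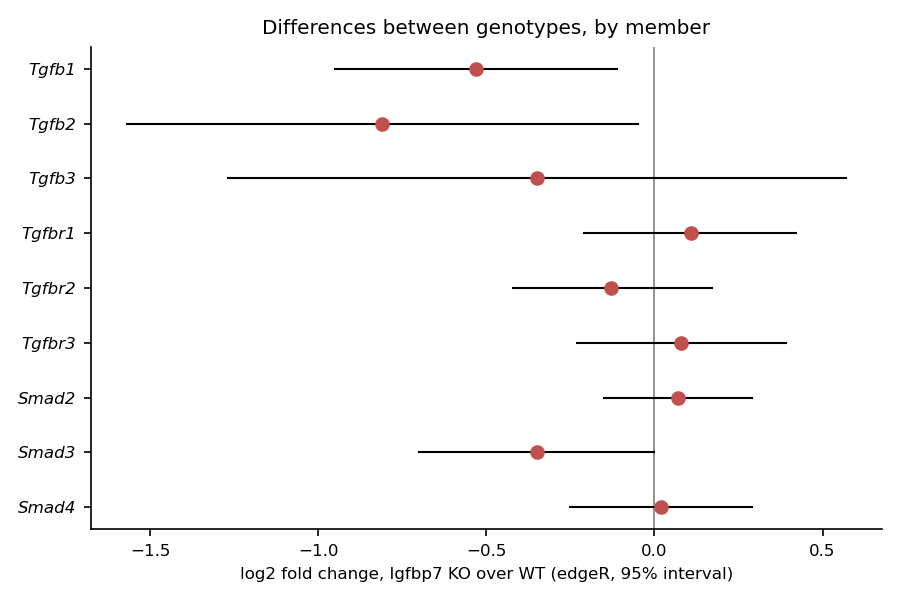
Log2 fold change of KO over WT for each gene (points) with its 95% interval (lines) from edgeR's quasi-likelihood fit, not adjusted for the number of genes. The intervals of Tgfb1 and Tgfb2 lie below 0, that of Smad3 ends at 0.00, and those of the other 6 genes span 0.

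Per length of transcript, the Smads and receptors stood above the ligands in both genotypes. These levels are CPM per kilobase of all annotated exons of a gene (GENCODE M21, GRCm38), an annotation that is not known to be the one behind the counts. Smad4, the shared partner of the receptor-activated SMADs, was highest at 11.2 ± 1.3 CPM per kilobase in KO and 11.0 ± 1.2 in WT livers (SD, n = 3 each). Tgfbr1 followed at 7.87 ± 0.90 in KO and 7.30 ± 1.21 in WT livers. Tgfbr2 was at 4.53 ± 0.81 in KO and 4.94 ± 0.10 in WT livers. Smad3, next in order, was at 3.71 ± 0.68 in KO and 4.74 ± 0.61 in WT livers, and its libraries overlapped those of Tgfbr2 in both genotypes. Tgfbr3 was at 2.93 ± 0.35 in KO and 2.77 ± 0.37 in WT livers. Its libraries overlapped those of Smad3 in KO livers and lay below them in WT livers. Smad2 was at 2.28 ± 0.14 in KO and 2.17 ± 0.06 in WT livers. The 3 ligands came last. Tgfb1 was at 1.17 ± 0.19 CPM per kilobase in KO and 1.70 ± 0.30 in WT livers, Tgfb3 at 0.284 ± 0.053 and 0.355 ± 0.175, and Tgfb2 at 0.0888 ± 0.0158 and 0.159 ± 0.040. All other neighbours in this order had libraries that did not overlap, except Tgfb3 and Tgfb2 in WT livers.

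The promoter windows of the 3 genes whose libraries did not overlap are shown because these are the members with a common direction in every library. They are RefSeq windows of GRCm38.p6, from 250 bases before to 50 bases after the annotated start, printed 5′ to 3′ on the gene's strand. Capitals mark matches on either strand to a GC box (GGGCGG), an AP-1 site (TGANTCA), an E-box (CACGTG), a Smad box (GTCTAGAC) or a TATA box (TATAAA). The Tgfb1 window is chr7:25686752-25687051 on the plus strand, that of Tgfb2 chr1:186705940-186706239 on the minus strand, and that of Smad3 chr9:63757945-63758244 on the minus strand. The marked matches do not overlap one another.
Tgfb1: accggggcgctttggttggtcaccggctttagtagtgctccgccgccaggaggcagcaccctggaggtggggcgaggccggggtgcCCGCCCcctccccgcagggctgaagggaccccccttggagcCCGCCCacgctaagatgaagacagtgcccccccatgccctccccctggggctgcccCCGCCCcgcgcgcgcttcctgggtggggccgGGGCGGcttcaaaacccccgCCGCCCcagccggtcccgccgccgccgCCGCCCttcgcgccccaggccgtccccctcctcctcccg
Tgfb2: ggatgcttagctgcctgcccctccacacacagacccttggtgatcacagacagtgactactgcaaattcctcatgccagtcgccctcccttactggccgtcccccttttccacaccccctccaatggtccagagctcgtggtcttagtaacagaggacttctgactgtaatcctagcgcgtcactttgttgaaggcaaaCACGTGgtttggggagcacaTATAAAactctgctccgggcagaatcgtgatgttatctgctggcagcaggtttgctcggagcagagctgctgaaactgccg
Smad3: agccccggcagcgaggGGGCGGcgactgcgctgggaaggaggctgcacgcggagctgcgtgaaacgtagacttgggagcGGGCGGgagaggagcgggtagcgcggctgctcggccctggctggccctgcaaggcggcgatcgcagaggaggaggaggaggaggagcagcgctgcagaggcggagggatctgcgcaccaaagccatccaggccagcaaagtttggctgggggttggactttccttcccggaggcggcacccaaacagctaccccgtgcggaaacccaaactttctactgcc

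The 3 windows differ in composition. That of Tgfb1 is 77.0% G and C and holds 6 GC boxes, that of Smad3 is 67.7% G and C with 2 GC boxes, and that of Tgfb2 is 54.3% G and C with none. The median over all 32851 windows of the table is 52.7%, and 35.7% of them hold a GC box. The Tgfb2 window holds 1 TATA box, whose first base lies at -31 from the start, and 1 E-box at -51. A TATA box occurs in 13.6% of all windows and an E-box in 7.15%. Matches to the AP-1 site, which 7.81% of all windows hold, and to the Smad box, which 0.213% hold, were found in none of the 3. A match is a stretch of letters and was not tested as a binding site.

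Tgfb1, per length the most abundant of the 3 ligand transcripts in these livers, stood lower in every KO library. It had 6.58, 4.80 and 6.38 CPM in KO libraries 1 to 3 (139, 88 and 130 counts), against 8.35, 10.1 and 7.16 CPM in WT libraries 1 to 3 (157, 217 and 124 counts). KO library 2 was lowest and WT library 2 highest. KO livers held 69.3% of the WT level, a log2 fold change of -0.53 ± 0.18 (SE) with a 95% interval of -0.95 to -0.11. The unadjusted p was 0.0192 and the adjusted p 0.226 by edgeR's quasi-likelihood test. Leaving out 1 library at a time gave log2 fold changes of -0.64 to -0.39, and with the clock score as a covariate it was -0.49.

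Macrophage transcripts also stood lower in each KO library, as a sum. All 12 Kupffer cell markers were tested, and 12 were below 0 with a median log2 fold change of -0.67. In 11 the KO values all lay below the WT values, as in 10.1% of all genes tested. The summed level of the 12 was 400 to 621 CPM in KO and 742 to 836 CPM in WT libraries, and none was at 0. The edgeR threshold was met by 0 of them, an unadjusted p under 0.05 by 12, and the DESeq2 threshold by 9. Of all genes tested, 7.35% were lower at an unadjusted p under 0.05 by edgeR. DESeq2 called 3.41% in either direction, 427 genes, of which 202 were lower in KO. KO library 2, the lowest for Tgfb1, Tgfb2, Smad3 and Smad4, was also lowest for the summed Kupffer markers, at 0.505 of the WT mean. WT library 3 was the lowest WT library for both Tgfb1 and the Kupffer sum. The highest libraries differed. Among KO libraries Tgfb1 was highest in library 1 and the Kupffer sum in library 3. Among WT libraries Tgfb1 was highest in library 2 and the Kupffer sum in library 1. Of 10 lymphocyte markers 7 were tested and all 7 were below 0, with a summed level of 3.93 to 6.22 CPM in KO and 7.62 to 9.30 CPM in WT libraries. The edgeR and DESeq2 thresholds were met by 0 of the 7, and an unadjusted p under 0.05 by 2. Several had low counts, such as 3 to 13 per library for Cd79a and 5 to 15 for Klrb1c, against 25 to 74 for Cd4. Of 8 cholangiocyte markers 7 were tested and 6 were below 0, at 68.1 to 78.9 CPM summed in KO and 97.0 to 127 CPM in WT libraries. Most of that sum was Spp1, for osteopontin, and the other 7 markers overlapped, at 21.4 to 28.0 CPM in KO and 26.8 to 32.0 CPM in WT libraries, a sum chosen after seeing the data. Endothelial markers summed to 477 to 576 CPM in KO and 519 to 541 CPM in WT libraries, with 6 of 10 below 0. Stellate cell markers summed to 288 to 345 CPM in KO and 307 to 335 CPM in WT libraries, with 6 of 10 tested genes below 0. Each of these 2 lists had 1 gene lower at an unadjusted p under 0.05 by edgeR, against 7.35% of all genes. These were Cdh5 (endothelial) and Ngfr (stellate), whose KO values all lay below the WT values, as in 10.1% of all genes. KO values of endothelial Oit3 all lay above, as in 10.7% of all genes. Of 6 platelet markers 2 were tested, Gp1bb was at 0 in all libraries, and the sum was 3.68 to 4.09 CPM in KO and 3.09 to 3.40 CPM in WT libraries. The 5 neutrophil markers in the files did not pass the filter and summed to 0.600 to 0.900 CPM in KO and 0.561 to 2.07 CPM in WT libraries. The part of these cell types in the Tgfb1 values was not tested, and in whole liver fewer cells of a type and less RNA per cell cannot be told apart.

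**Figure D3:**
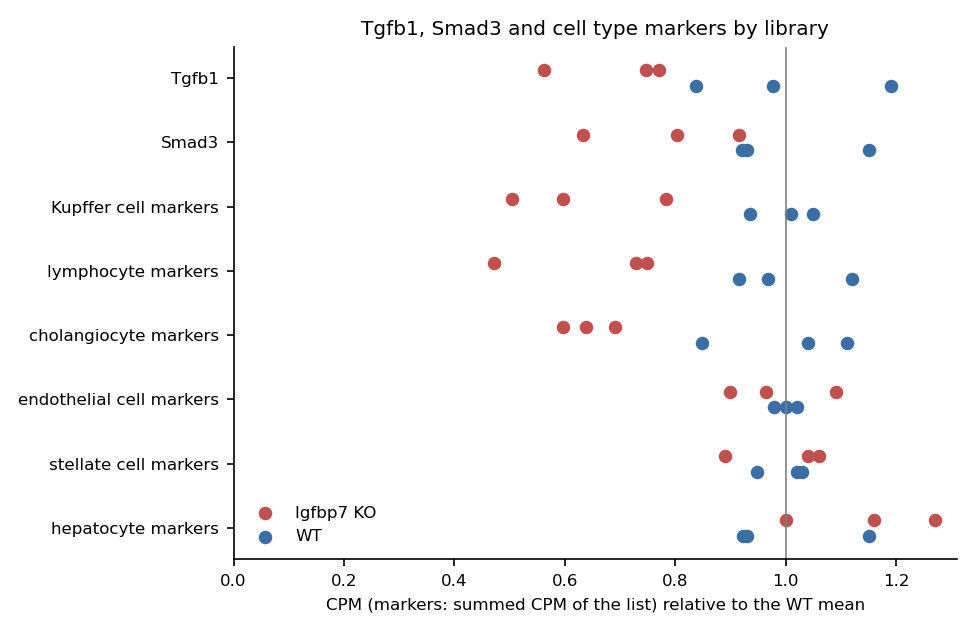
Level of Tgfb1, of Smad3 and of the summed cell type markers in each library relative to the WT mean (horizontal axis, from 0; 1 is the WT mean), with KO libraries above WT libraries in each row. KO points lie below all WT points for Tgfb1, Smad3 and the Kupffer, lymphocyte and cholangiocyte markers (the last overlap without Spp1), and overlap WT points for endothelial, stellate and hepatocyte markers.

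Tgfb2, a ligand best known from embryonic tissues and from fibroblast and epithelial cells, was near the limit of detection. It had 13, 8 and 10 counts in KO libraries 1 to 3, or 0.616, 0.437 and 0.491 CPM, against 20, 14 and 18 counts in WT libraries 1 to 3, or 1.06, 0.655 and 1.04 CPM. The KO values lay below the WT values, with a gap between KO library 1 and WT library 2 of less than the spread within either group. The log2 fold change was -0.81 ± 0.33 (SE), with a 95% interval of -1.57 to -0.05, an unadjusted p of 0.0387 and an adjusted p of 0.293 by edgeR. The ratio of the summed counts, 31 in KO and 52 in WT livers, was 0.573 with an exact binomial 95% interval of 0.355 to 0.911 for counting error alone. Only 1 KO library reached the filter's limit of 0.520 CPM, against all 3 WT libraries, so the gene entered the test through its WT values.

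Tgfb3, the third ligand, was spread more widely among WT than among KO livers. Its counts were 16, 20 and 21 in KO libraries 1 to 3 and 29, 33 and 9 in WT libraries 1 to 3. In CPM it stood at 0.758, 1.09 and 1.03 in KO and at 1.54, 1.54 and 0.519 in WT livers. WT library 3 was the lowest of all 6, so the groups overlapped. The log2 fold change was -0.35 ± 0.40 (SE), with a 95% interval of -1.27 to 0.57 and an adjusted p of 0.739 by edgeR. With 1 library left out it ran from -0.69 without WT replicate 3 to -0.12 without WT replicate 2, and with the clock score it was 0.05.

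The balance among the ligands did not differ detectably. Tgfb1 made up 82.7%, 75.9% and 80.7% of the reads of the 3 ligands in KO libraries 1 to 3, and 76.2%, 82.2% and 82.1% in WT libraries 1 to 3. The means were 79.8 ± 3.5% in KO and 80.2 ± 3.4% in WT livers (SD, n = 3 each; exact permutation test, 2-sided p = 0.9, where the smallest p possible is 0.1). The difference of -0.395 percentage points changed sign in 3 of the 6 comparisons with 1 library left out.

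No receptor gene passed the test, and the KO and WT libraries overlapped for all 3. Tgfbr1, the type I receptor kinase also called ALK5, had 47.2, 49.0 and 58.2 CPM in KO libraries 1 to 3, against 39.8, 47.7 and 55.6 CPM in WT libraries 1 to 3. Library 3 was highest in each group and WT library 1 lowest of all. The log2 fold change was 0.11 ± 0.14 (SE), with a 95% interval of -0.21 to 0.42 and an edgeR adjusted p of 0.762. It was -0.01 without WT replicate 1 and -0.12 with the clock score as a covariate.

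Tgfbr2, the type II receptor that binds ligand first, differed more among KO than among WT livers. It had 31.2, 44.2 and 35.8 CPM in KO libraries 1 to 3, against 39.5, 41.0 and 40.9 CPM in WT libraries 1 to 3. KO libraries held both the lowest and the highest value, and the SD was 6.60 CPM in KO and 0.835 CPM in WT livers. The log2 fold change was -0.13 ± 0.13 (SE), with a 95% interval of -0.42 to 0.17 and an edgeR adjusted p of 0.696. The estimate was -0.02 without KO replicate 1 and -0.27 without KO replicate 2. Tgfbr3, the coreceptor betaglycan, had 17.6, 21.8 and 18.1 CPM in KO libraries 1 to 3, against 15.4, 18.8 and 20.1 CPM in WT libraries 1 to 3. Its groups overlapped, with WT library 1 lowest and KO library 2 highest. The log2 fold change was 0.08 ± 0.14 (SE), with a 95% interval of -0.23 to 0.39 and an edgeR adjusted p of 0.831. Its sign turned without WT replicate 1 or without KO replicate 2, at -0.02 in each case, and with the clock score, at -0.15.

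Among the Smads, Smad3 was the member that stood lower in every KO library. It had 21.1, 16.6 and 24.1 CPM in KO libraries 1 to 3, against 24.2, 24.4 and 30.2 CPM in WT libraries 1 to 3. KO library 3 and WT library 1 nearly met, and KO library 2 and WT library 3 were the extremes. KO livers held 78.5% of the WT level, a log2 fold change of -0.35 ± 0.15 (SE) with a 95% interval of -0.70 to 0.00. The unadjusted p was 0.0505 and the adjusted p 0.325 by edgeR's quasi-likelihood test. The estimate ran from -0.48 without KO replicate 3 to -0.22 without KO replicate 2, a change of more than 1.5 times from the full estimate in the second case.

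Smad2, which shares the role of receptor substrate with Smad3, varied little between libraries. It had 20.2, 18.7 and 21.1 CPM in KO libraries 1 to 3, against 19.1, 19.6 and 18.5 CPM in WT libraries 1 to 3. The groups overlapped, at a log2 fold change of 0.07 ± 0.10 (SE) whose 95% interval ran from -0.15 to 0.29, or 0.900-fold to 1.22-fold (edgeR adjusted p = 0.793). Smad4 had 46.0, 36.6 and 41.6 CPM in KO libraries 1 to 3, against 37.7, 39.1 and 45.8 CPM in WT libraries 1 to 3. KO library 2 was lowest and KO library 1 highest. The log2 fold change was 0.02 ± 0.12 (SE), with a 95% interval of -0.25 to 0.29 and an edgeR adjusted p of 0.960, and its sign depended on the scaling.

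Within the pair of receptor-activated Smads, Smad3 held a smaller share of the reads in every KO library. Smad3 made up 51.1%, 47.0% and 53.3% of the Smad2 and Smad3 reads in KO libraries 1 to 3, and 55.8%, 55.5% and 62.0% in WT libraries 1 to 3. Every KO share lay below every WT share. The means were 50.5 ± 3.2% in KO and 57.8 ± 3.7% in WT livers (SD, n = 3 each), a difference of -7.32 percentage points. The exact permutation test, 2-sided, gave p = 0.1, the smallest p that 3 against 3 libraries allow. The difference stayed between -8.74 and -5.19 points with 1 library left out, and being a ratio within a library it does not depend on scaling between libraries. These are shares of reads without correction for transcript length, and with counts per kilobase the difference was -6.69 points. A share alone does not say which of the pair moved. In the fits Smad3 was at -0.35 and Smad2 at 0.07 on the log2 scale, neither past the threshold.

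The members did not follow a single profile over the 6 libraries. KO library 2 held the lowest value of 4 members, Tgfb1, Tgfb2, Smad3 and Smad4, and the highest value of 2 members, Tgfbr2 and Tgfbr3. Pearson's r of log2 CPM over 6 libraries, given as a description of points that share library and genotype, was 0.64 between Tgfb1 and Smad3, 0.58 between Tgfb1 and Tgfb2 and 0.74 between Tgfb2 and Smad3. It was 0.57 between Tgfbr1 and Tgfbr3, -0.72 between Tgfbr2 and Smad2, and -0.82 between Tgfb3 and Smad4.

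In a search of 10821 other genes at a mean of at least 1 CPM, the profiles most like that of Tgfb1 were those of Ythdf2, a reader of methylated adenosine in mRNA (r = 0.995), and Cap1, an actin-binding protein (r = 0.991). The search gave Leprot and Tmem218 for Tgfb2, Trim12a and Acmsd for Tgfb3, Mtmr10 and Cetn3 for Tgfbr1, Cog6 and Zfp828 for Tgfbr2, and Cpn2 and Clasp1 for Tgfbr3. It gave Ephb4 and Lrdd for Smad2, Slc7a5 and Usp39 for Smad3, and Fam168a and Papola for Smad4. These r values ran from 0.981 to 0.995 over 6 libraries, and 0 of these genes passed the edgeR threshold. Each is among the highest of 10821 values over 6 points, so r this high can arise from the search alone. Whether any pair is regulated together was not tested.

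Genes around the core of the pathway were read from 6 further lists of 85 genes, of which 71 passed the filter. By edgeR 0 of the 71 passed, as by limma-voom, while DESeq2 called 2 higher, Klf10 and Smad7. An unadjusted p under 0.05 was reached by 8 that stood higher and 6 that stood lower in KO, against 8.1% and 7.35% of all genes tested. The median log2 fold change of the 71 was -0.01, with 35 above and 36 below 0. Genes not past the threshold are named below with their values.

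**Figure D4:**
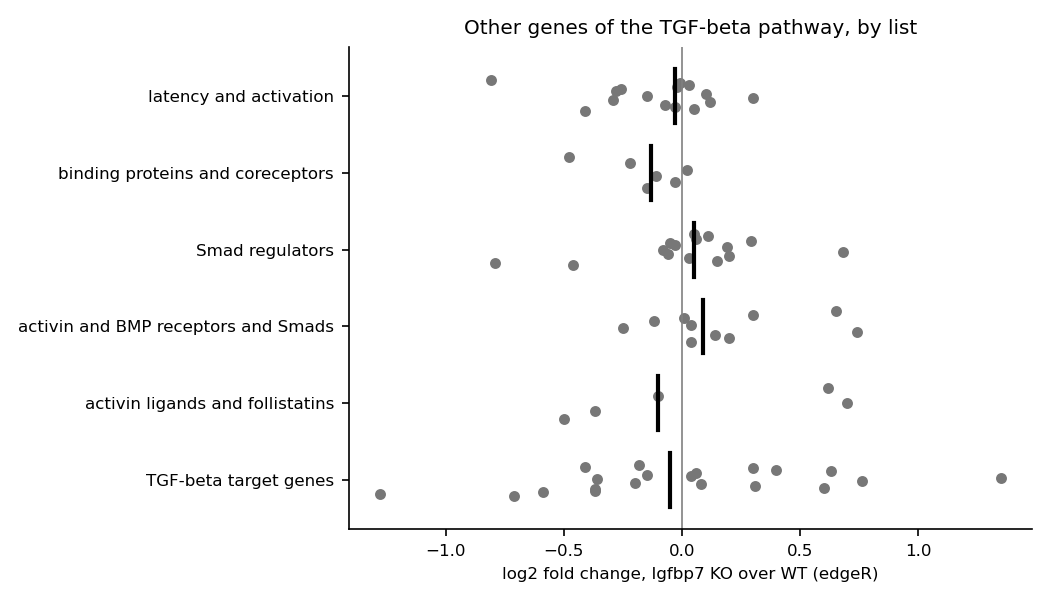
Log2 fold change of KO over WT (horizontal axis, edgeR) for each tested gene of the 6 other pathway lists (points, one row of the plot per list; vertical position within a row only separates points), with the list's median as a black bar. Medians lie between -0.13 and 0.09, and the widest spread is among the target genes.

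Ligand storage and release genes had a median near 0, with more of them below 0 than above. Of 15 tested genes for latent TGF-beta binding proteins, activating integrins and proteases, 5 were above and 10 below 0, at a median of -0.03. Of the 15, 3 stood lower at an unadjusted p under 0.05 by edgeR, Thbs1, Itgb5 and Fbn1, against 7.35% of all genes tested. In 3 the KO values all lay below the WT values, against 10.1% of all genes, and in 0 all above, against 10.7%. Thbs1, the gene for thrombospondin 1, which can activate latent TGF-beta, had 1.14, 0.982 and 0.982 CPM in KO livers, against 2.45, 1.64 and 1.39 CPM in WT livers. Its log2 fold change was -0.81 ± 0.28 (SE, edgeR adjusted p = 0.226), and -0.34 with the clock score as a covariate. Itgb5, an integrin subunit that can bind the latent complex, was at 54.5 ± 6.1 CPM in KO and 66.5 ± 8.3 CPM in WT livers (SD, n = 3 each), with overlapping groups. Of 6 tested genes for ligand-binding proteoglycans and coreceptors, 5 were below 0, at a median of -0.13, and 0 had an unadjusted p under 0.05. The lowest p there were those of Vasn, whose product vasorin binds TGF-beta, at 11.7 ± 2.1 CPM in KO and 16.4 ± 5.8 CPM in WT livers, and of Fmod, for fibromodulin, at 3.05 ± 0.14 CPM in KO and 3.57 ± 1.01 CPM in WT livers (SD, n = 3 each).

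The regulators of Smad activity included genes at both ends. Of 15 tested, 9 were above and 6 below 0, at a median of 0.05, and an unadjusted p under 0.05 was reached by 2 in each direction. Smad7, the inhibitory Smad that targets the type I receptor for degradation and is itself induced by TGF-beta, had 13.9, 18.3 and 14.2 CPM in KO libraries 1 to 3, against 9.62, 7.81 and 11.7 CPM in WT libraries 1 to 3. The groups did not overlap. KO livers stood 0.68 ± 0.18 (SE) above WT on the log2 scale, and the adjusted p was 0.137 by edgeR and 0.0263 by DESeq2, with up to 0.68 among the other settings. Pmepa1, another TGF-beta-induced inhibitor that keeps SMAD2 and SMAD3 from the receptor, had 2.60, 1.96 and 2.60 CPM in KO libraries 1 to 3, against 4.36, 3.93 and 4.21 CPM in WT libraries 1 to 3. Its groups did not overlap either, at a log2 fold change of -0.79 ± 0.19 (SE), and the adjusted p was 0.114 by edgeR and 0.0539 by DESeq2, with up to 0.63 among the other settings. These 2 feedback inhibitors stood apart from WT in opposite directions.

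**Figure D5:**
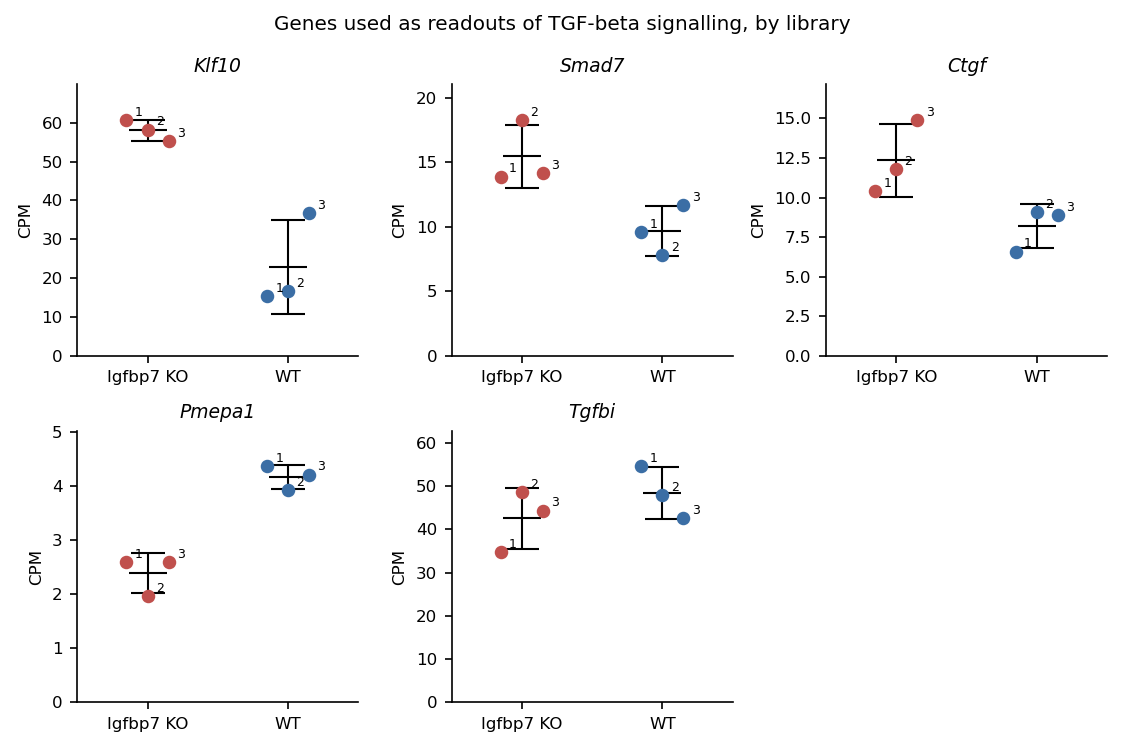
CPM of 5 genes commonly used as readouts of TGF-beta signalling (vertical axes from 0) in KO and WT livers; points are libraries numbered by replicate, and bars are the mean ± SD of 3 libraries. KO points lie above WT points for Klf10, Smad7 and Ctgf, below them for Pmepa1, and overlap them for Tgfbi.

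Target genes were split evenly. Of 20 tested, 10 were above and 10 below 0, at a median of -0.05, and an unadjusted p under 0.05 was reached by 3 above and 1 below. Klf10, also called TGF-beta inducible early gene 1 and known to follow a daily rhythm in liver, had 60.7, 58.2 and 55.2 CPM in KO libraries 1 to 3, against 15.3, 16.6 and 36.7 CPM in WT libraries 1 to 3. KO livers stood 1.35 ± 0.29 (SE) above WT on the log2 scale, and the adjusted p was 0.0969 by edgeR and 0.000137 by DESeq2. Without WT replicate 3 the estimate was 1.86 and passed (edgeR adjusted p = 0.00192), and with the clock score as a covariate it was 0.89 (edgeR adjusted p = 0.621). The genotypes did not overlap in that score, and the fit with it called 1 gene of all tested, against 27 in the reported fit. Ctgf, for connective tissue growth factor, had 10.4, 11.8 and 14.9 CPM in KO libraries 1 to 3, against 6.59, 9.07 and 8.89 CPM in WT libraries 1 to 3, a log2 fold change of 0.60 ± 0.18 (SE, edgeR adjusted p = 0.177), and of 0.32 with the clock score as a covariate. Tgfbi was at 42.5 ± 7.0 CPM in KO and 48.3 ± 6.0 CPM in WT livers (SD, n = 3 each; edgeR adjusted p = 0.596).

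The fibrillar collagens and smooth muscle actin, by which the fibrogenic action of TGF-beta is often read, are given after their values were seen. Col1a1 had 4.83, 4.86 and 7.66 CPM in KO libraries 1 to 3, against 14.2, 5.85 and 6.06 CPM in WT libraries 1 to 3. WT library 1 stood far above the other 5. Col1a1 stood at -0.59 ± 0.36 (SE) on the log2 scale, and -0.04 without WT replicate 1. Col1a2 had 11.5, 12.9 and 16.9 CPM in KO libraries, against 24.5, 13.4 and 15.7 CPM in WT libraries, and Col3a1 had 24.1, 32.6 and 49.0 CPM in KO libraries, against 63.1, 36.8 and 37.2 CPM in WT libraries. Each was at -0.37 on the log2 scale, and at -0.08 for Col1a2 and -0.07 for Col3a1 without WT replicate 1, so the lower KO means of the 3 collagens rested on that library. With the clock score as a covariate the 3 collagens stood above 0. Acta2 had 3.13, 1.31 and 4.03 CPM in KO libraries, against 5.48, 5.28 and 3.17 CPM in WT libraries, at -0.71 ± 0.37 (SE), and at -0.38 without KO replicate 2 and -0.37 with the clock score. All 4 had overlapping groups and edgeR adjusted p of 0.399 to 0.577. Tagln, of the same target list, did not overlap. It had 7.43, 7.75 and 11.0 CPM in KO libraries, against 11.7, 12.0 and 11.1 CPM in WT libraries, where KO library 3 and WT library 3 nearly met. Its log2 fold change was -0.41 ± 0.17 (SE), with an unadjusted p of 0.0368 and an adjusted p of 0.287 by edgeR.

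In the related activin and bone morphogenetic protein branch no gene passed the test. Of 10 tested receptors and Smads of that branch, 8 were above 0, at a median of 0.09. By edgeR 2 were higher at an unadjusted p under 0.05, against 8.1% of all genes tested. In 2 the KO values all lay above the WT values and in 1 all below, against 10.7% and 10.1% of all genes. Acvr2b, an activin type II receptor, was at 3.18 ± 0.30 CPM in KO and 1.90 ± 0.33 CPM in WT livers, and Smad5, a transducer of bone morphogenetic proteins, at 51.1 ± 7.0 CPM in KO and 41.6 ± 0.2 CPM in WT livers (SD, n = 3 each). KO values of both lay above WT values, and the edgeR adjusted p were 0.157 for Acvr2b and 0.25 for Smad5. Of 9 activin ligand and follistatin genes 5 were tested, 2 of them above 0. Inhbe, a hepatocyte activin subunit whose product signals as a secreted liver factor, had 74.8, 94.9 and 59.5 CPM in KO libraries 1 to 3, against 56.6, 35.2 and 57.4 CPM in WT libraries 1 to 3 (log2 fold change 0.62 ± 0.22, SE; edgeR adjusted p = 0.226). Inhbb was at 2.22 ± 0.12 CPM in KO and 1.38 ± 0.81 CPM in WT livers (SD, n = 3 each; edgeR adjusted p = 0.411), with overlapping groups.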

How the data were processed

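RNA was measured in 3 KO and 3 WT liver libraries, grouped by sample title. Each deposited file holds the raw read counts of 1 library by gene symbol, not normalized. According to the submitters' processing notes, CASAVA 1.8.2, TopHat2 2.0.8b and also HTSeq were used, and builds mm9 and hg19 are listed. Which annotation and strand setting were used is not given in the sources. The 5 closing rows that name no gene were left out; reads outside genes made up 9.65% to 12.5% and ambiguous reads 0.594% to 0.662% of uniquely placed reads. In GENCODE M21, exons of Tgfb2, Tgfb3 and Tgfbr3 share at most 7.60% of their length with any other gene, none of which the files list.

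The test was that of edgeR 4.0.16 (R 4.3.3): filterByExpr by genotype with a minimum count of 10 (12522 genes kept), TMM scaling, a quasi-likelihood fit on genotype, and Benjamini-Hochberg adjustment over all genes tested, 2-sided, at 0.05. CPM use TMM-adjusted library sizes. Standard errors and 95% intervals come from the F statistic. Shares used exact permutation tests (SciPy 1.17.1). Counting intervals cover counting error only. The fits were tested on simulated data.

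Alternatives were other scalings and filters, DESeq2 1.42.0, limma-voom (limma 3.58.1), robust estimation, a replicate block, a clock score covariate, thinned counts and each library left out. Named genes were all members, the 2 genes of lowest p in each other list with none past the threshold, 4 fixed readouts (Smad7, Pmepa1, Tgfbi and Ctgf; 1 more is not reported here), and the 2 genes most correlated with each member. Members and lists were chosen with earlier results of these data known. Of the members 5 had a RefSeq promoter window.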

Additional observations from a re-analysis of the deposited data

How the results depend on the processing

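The count of 0 members past the threshold was 0 under all 17 other settings of the test. Tgfb1, Tgfb2, Tgfbr2, Smad2 and Smad3 kept their direction in every setting that gave a value, and Tgfb2 had none under the filter of 1 CPM in 3 libraries. Igfbp7 passed in all 17. The count of other pathway genes was 0 in the reported fit, 1 without a filter, 2 with DESeq2, and 0 to 1 with 1 library left out. With the clock score as a covariate the log2 fold change was 0.05 for Tgfb3, -0.12 for Tgfbr1, -0.15 for Tgfbr3, -0.06 for Smad4, 0.22 for Fmod, 0.27 for Col1a1, 0.08 for Col1a2 and 0.09 for Col3a1, each of the opposite sign to the reported fit. Smad4 was at -0.02 with upper-quartile scaling, -0.03 with total count scaling and -0.003 with thinned counts. With 1 library left out the ranges that crossed 0 were -0.01 to 0.23 for Tgfbr1, -0.02 to 0.16 for Tgfbr3, -0.07 to 0.11 for Smad4 and -0.35 to 0.03 for Fmod, and -2.38 to 1.57 percentage points for the Tgfb1 share of ligand reads. Without WT replicate 1 the estimate was -0.19 for Itgb5 and 1.28 for Inhbb, without WT replicate 2 it was 0.38 for Inhbb, without WT replicate 3 -0.19 for Vasn, and without KO replicate 3 0.18 for Smad5, against -0.29, 0.70, -0.48 and 0.30 in the reported fit of Itgb5, Inhbb, Vasn and Smad5. The clock score moved Itgb5 to -0.14, Vasn to -0.88 and Inhbb to 1.57. Tgfbi, at -0.18, ran from -0.29 to -0.06 with 1 library left out. The cause of these changes was not tested. Upper-quartile and total count scaling moved the median of all genes by -0.043 and -0.047 on the log2 scale.

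The replicate numbers gave no pairing: deviations of same-numbered KO and WT libraries correlated at -0.083, -0.098 and -0.041. With the numbers as a replicate block 0 members and 0 other pathway genes passed, 1 gene of all tested was called in place of 27, and Tgfb1 was at -0.53 (edgeR adjusted p = 0.339, within 0.183 to 0.782 over the 17 settings). No library correlated best with its own number. Tgfb2 and Tgfb3 had 8 to 33 counts per library.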
